A study of Mus musculus with 6 samples.

Results

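The 38 genes described here encode parts of the sarcomere outside the myosin motors and the actins: titin and the myosin binding proteins, the M-band proteins, the troponins and tropomyosins, the proteins that cap and lengthen the thin filament, the alpha-actinins, the Z-disc proteins, desmin and the factors that assemble myosin. They were chosen by gene symbol, and each of the 38 symbols matched 1 of the 24602 genes in the deposited table. Messenger RNA, purified from total RNA with oligo(dT) beads, was sequenced from wild-type mouse left ventricle, in 3 TAC samples and 3 sham samples, taken 5 weeks after transverse aortic coarctation (TAC), a narrowing of the aorta that loads the ventricle with pressure, or after a sham operation. The labels give no strain, sex or age, and do not say that each sample is a separate mouse. The p-values therefore measure the spread among these libraries alone, and that spread may be technical. The samples are whole tissue, in which fewer cells of a type and less RNA per cell cannot be told apart.

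The sarcomere is the repeating contractile unit of striated muscle. Thin filaments of actin, tropomyosin and troponin are anchored by alpha-actinin at the Z-disc, thick filaments of myosin are held together at the M-band, and titin spans the distance between the Z-disc and the M-band. Calcium binding to troponin C moves tropomyosin and lets myosin pull on actin, and many of these genes carry mutations that cause cardiomyopathy in humans. Growth of the heart under pressure load is known to add sarcomeres.

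The libraries held from 64023153 to 69992502 estimated counts. Of the 38 genes, 35 had a mean of 1 or more FPKM (fragments per kilobase of transcript, scaled to sequencing depth) over the 6 libraries and were tested, among 8795 genes in all. The slow skeletal troponin I gene Tnni1, the third myomesin gene Myom3 and the calsarcin gene Myoz1 were below that level. Together the 38 genes took between 4.22% and 4.82% of all estimated counts in TAC libraries and between 4.63% and 5.06% in sham libraries. Transcripts of the mitochondrial chromosome took 22.6% to 29.2% in TAC libraries against 14.8% to 19.2% in sham libraries, and of the remaining counts the 38 genes took 5.96% to 6.26% in TAC and 5.73% to 6.0% in sham. Values per library are therefore given as CPM, the TMM-scaled form of the estimated counts, which is the scale of the test. FPKM is used to compare levels between genes, for shares and ratios of genes, and for sums and ranges of cell type markers. Marker values in FPKM that are set between groups carry the difference in scale that follows. On the FPKM scale the median gene had a log2 difference of -0.13 between TAC and sham, against -0.009 in the fit on counts, and limma on log2(FPKM + 1) called 174 genes higher and 338 lower where edgeR on counts called 414 higher and 201 lower.

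Most of the sarcomere genes did not pass the test, and those that did stood well below the most abundant sarcomere transcripts. The Z-disc genes Pdlim5 and Nexn and the gene of fast-type myosin binding protein C, Mybpc2, were higher in TAC by 2.61-fold, 2.67-fold and 2.44-fold. The M-band gene Obsl1 was lower, at 0.653 of its sham level. In edgeR's quasi-likelihood test with Benjamini-Hochberg adjustment over 8795 genes, 3 of the 35 tested genes rose, 1 fell and 31 did not pass at an adjusted p under 0.05. Over all tested genes 4.71% rose and 2.29% fell, and 6.99% passed in either direction, against 11.4% of the 35. Their median log2 fold change was 0.26, against -0.009 over all tested genes, and 22 of the 35 had a value above 0, where 49.2% of all tested genes were above 0. The CPM of all 3 TAC libraries lay above all 3 sham libraries in 11 of the 35 genes, where 17.7% of all tested genes did so, and below them in 4, where 17.1% did. Such separations depend on the scale. In FPKM the groups of Des, Tnnt2 and Synpo2l, among others, overlapped, while Actn2, which overlapped in CPM, was lower in every TAC library.

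**Figure D1:**
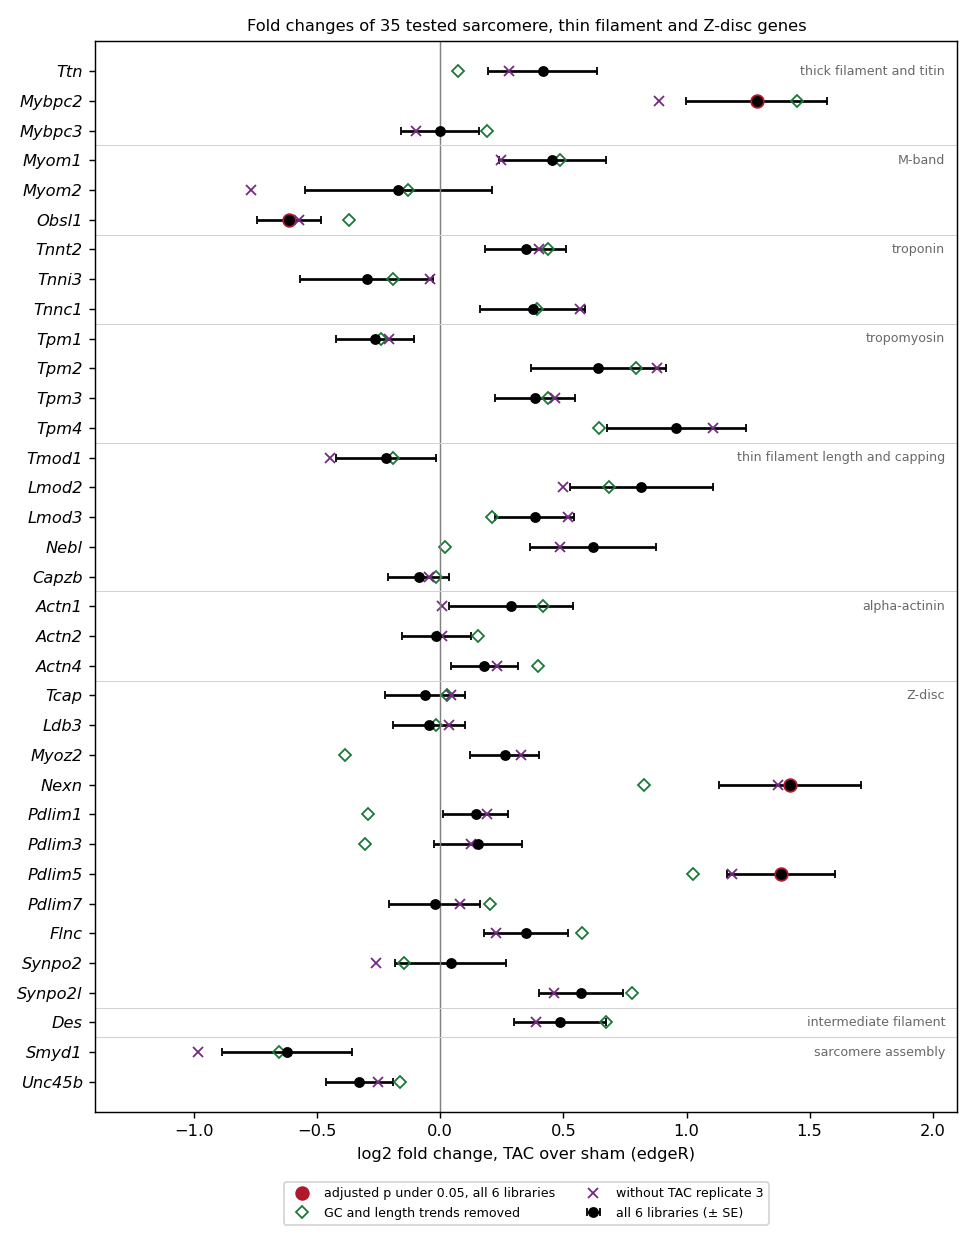
Log2 fold changes of TAC over sham for the 35 tested genes, grouped by role from the top of the page down. Black points with bars are the edgeR estimate ± SE from all 6 libraries, those with a red rim passed at an adjusted p under 0.05, open diamonds are the estimate with GC and length trends removed and crosses the estimate without TAC replicate 3. Nexn, Pdlim5 and Mybpc2 stand to the right of the others, and Myom2 moves furthest to the left when TAC replicate 3 is left out, to -0.77.

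Pdlim5 (chr3:142239590-142395693 in GRCm38, minus strand) encodes a PDZ-LIM protein, also known as ENH, that binds alpha-actinin and protein kinase C at the Z-disc. It measured 114, 112 and 162 CPM in TAC libraries, against 61.2, 38.2 and 49.2 CPM in sham libraries. TAC replicate 3 was the highest library, and the groups did not overlap. Its log2 fold change was 1.38 ± 0.22 (SE, edgeR adjusted p = 0.0229). Nexn (chr3:152236982-152266318, minus strand) encodes nexilin, an actin-binding protein of the Z-disc and of the junctions between the surface membrane and the sarcoplasmic reticulum. Its CPM were 50.0, 47.8 and 53.9 in TAC libraries, against 26.3, 10.7 and 19.7 in sham libraries. The TAC libraries lay close together and the sham libraries were spread out, without overlap. The log2 fold change of Nexn was 1.42 ± 0.29 (SE, edgeR adjusted p = 0.0323). Of its exonic bases 7.5% lie inside another record on the same strand.

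Mybpc2 (chr7:44501699-44524656, minus strand) encodes the form of myosin binding protein C known from fast skeletal muscle. TAC libraries held 48.0, 40.4 and 86.0 CPM, against 29.0, 20.3 and 22.3 CPM in sham libraries. TAC replicate 3 was again the highest library, and no sham library reached the lowest TAC library. Mybpc2 rose by 1.28 ± 0.29 on the log2 scale (SE, edgeR adjusted p = 0.0387). Obsl1 (chr1:75479310-75506361, minus strand) encodes obscurin-like 1, a cytoskeletal linker that binds titin and myomesin at the M-band. Its CPM were 121, 117 and 109 in TAC libraries, against 175, 194 and 161 in sham libraries, and every TAC library was lower than every sham library. Obsl1 fell by 0.61 ± 0.13 on the log2 scale (SE, edgeR adjusted p = 0.0352).

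**Figure D2:**
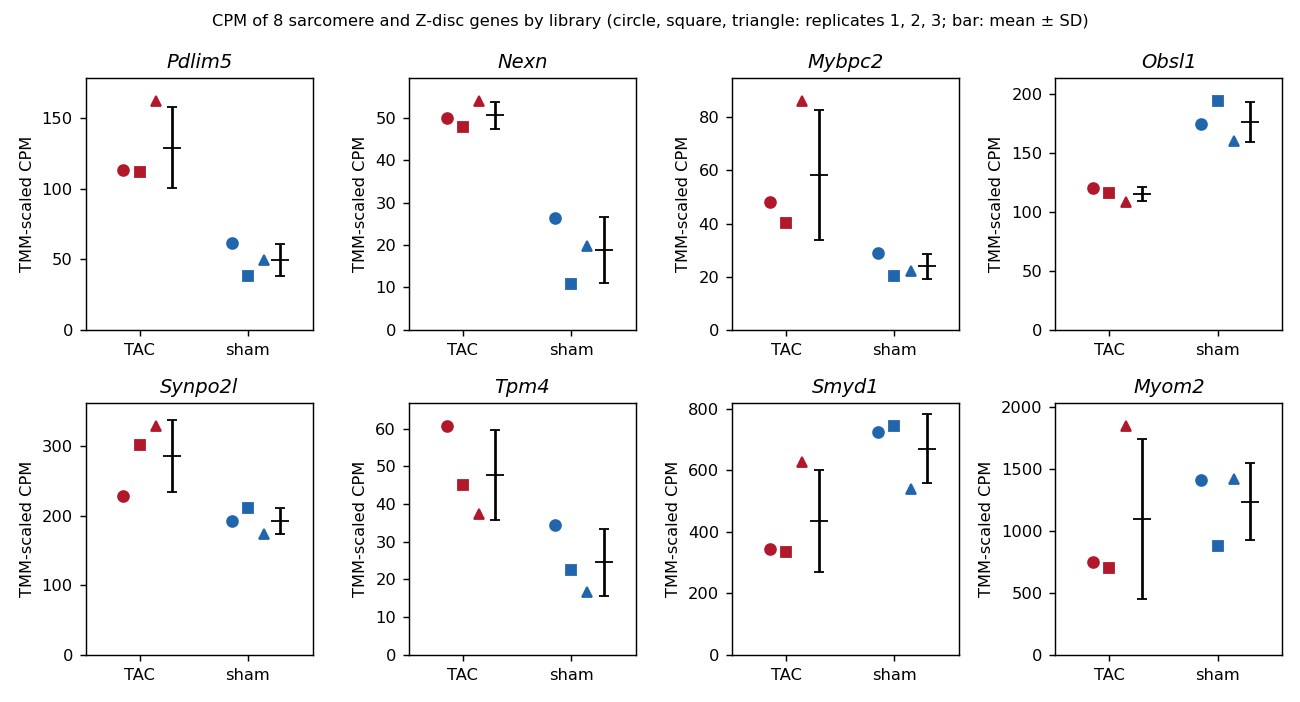
TMM-scaled CPM of 8 genes in each library, TAC on the left and sham on the right, each axis starting at 0. Circles, squares and triangles are replicates 1, 2 and 3, and bars are mean ± SD of 3 libraries. Pdlim5, Nexn, Mybpc2, Synpo2l and Tpm4 are higher in all 3 TAC libraries and Obsl1 is lower, whereas for Smyd1 and Myom2 TAC replicate 3 (626 and 1844 CPM) lies among the sham libraries or above them.

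Each of these 4 calls depended on the libraries used. Pdlim5 did not pass without sham replicate 2 (edgeR adjusted p = 0.115), sham replicate 3 (0.0716) or TAC replicate 1 (0.0538). The call of Nexn was lost without sham replicate 2 (0.102), sham replicate 3 (0.0978), TAC replicate 1 (0.0908) or TAC replicate 2 (0.0589). Mybpc2 had an adjusted p of 0.0555 without sham replicate 1, 0.168 without sham replicate 2, 0.119 without sham replicate 3 and 0.0870 without TAC replicate 1. Its log2 fold change was 0.89 without TAC replicate 3, with the call kept. Obsl1 passed without TAC replicate 3 (0.0183) and in none of the other 5 such fits, whose adjusted p lay between 0.0788 and 0.151. Calls over all genes moved as well, with 4.1%, 0.136% and 0.58% of all tested genes called without sham replicates 1, 2 and 3, and 0.58%, 1.51% and 19.4% without TAC replicates 1, 2 and 3. Each of the 4 genes kept its direction in all 6 fits, with ranges of 1.19 to 1.58 for Pdlim5, 1.14 to 1.75 for Nexn, 0.89 to 1.49 for Mybpc2 and -0.68 to -0.54 for Obsl1.

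Of the 4 genes that passed, Nexn and Obsl1 lay at the ends of the range of base composition. Over all tested genes the log2 fold change went with the GC content of the transcript, with a Spearman rho of -0.49 across 8790 genes and -0.33 across the 35 genes described here. These genes share libraries and their depth, so the correlation describes the 6 libraries. Nexn had the lowest GC content of the 35 at 39.6% and Obsl1 the highest at 62.5%, against a median of 50.9%. The part of base composition in their differences was not tested beyond the fit that follows. After lowess trends over GC content and length had been taken out of each library, Nexn had a log2 fold change of 0.83 (adjusted p = 0.0655) and Obsl1 of -0.37 (adjusted p = 0.0881), and neither passed. Pdlim5 (1.02, adjusted p = 0.0114) and Mybpc2 (1.45, adjusted p = 0.0402) passed, as did Synpo2l (0.78, adjusted p = 0.0380). In that fit 2.3% of all tested genes rose, 1.85% fell and 4.15% passed in either direction. Over all genes 1.2% passed without the FPKM filter, 2.08% with a replicate block and 1.49% with the block and these trends removed. The sequence around the start sites of Mybpc2, Pdlim5 and Obsl1 is printed here with that of Ttn, whose window holds both an MCAT and a MEF2 match, since these are the windows of the called genes in the promoter table and of the titin spring. Each window surrounds a RefSeq start site in GRCm38.p6 and is written 5′ to 3′ on the gene's strand, and capitals mark matches.
Mybpc2, chr7:44524620-44524919, minus strand: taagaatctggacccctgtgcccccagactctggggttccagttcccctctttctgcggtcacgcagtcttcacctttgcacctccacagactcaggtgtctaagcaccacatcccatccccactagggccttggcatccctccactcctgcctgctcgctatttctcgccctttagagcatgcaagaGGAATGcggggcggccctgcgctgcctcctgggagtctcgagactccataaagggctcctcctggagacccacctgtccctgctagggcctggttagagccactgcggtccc
Pdlim5, chr3:142395647-142395946, minus strand: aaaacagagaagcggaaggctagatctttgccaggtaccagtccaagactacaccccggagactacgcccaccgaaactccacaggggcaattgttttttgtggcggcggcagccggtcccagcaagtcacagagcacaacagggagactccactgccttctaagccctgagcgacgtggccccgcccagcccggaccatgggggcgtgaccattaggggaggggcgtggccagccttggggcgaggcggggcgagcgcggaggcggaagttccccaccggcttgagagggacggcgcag
Pdlim5, chr3:142391801-142392100, minus strand: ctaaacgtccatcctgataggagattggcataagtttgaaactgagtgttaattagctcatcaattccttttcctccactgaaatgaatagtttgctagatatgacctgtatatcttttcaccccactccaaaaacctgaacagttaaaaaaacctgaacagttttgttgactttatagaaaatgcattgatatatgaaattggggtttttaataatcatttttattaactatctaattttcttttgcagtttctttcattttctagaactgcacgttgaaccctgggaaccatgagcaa
Obsl1, chr1:75506403-75506702, minus strand: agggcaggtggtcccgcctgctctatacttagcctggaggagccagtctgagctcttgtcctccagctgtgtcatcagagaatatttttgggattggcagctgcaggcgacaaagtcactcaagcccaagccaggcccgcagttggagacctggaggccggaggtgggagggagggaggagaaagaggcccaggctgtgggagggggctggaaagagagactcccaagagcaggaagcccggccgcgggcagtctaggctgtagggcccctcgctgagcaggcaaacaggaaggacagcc
Ttn, chr2:76982498-76982797, minus strand: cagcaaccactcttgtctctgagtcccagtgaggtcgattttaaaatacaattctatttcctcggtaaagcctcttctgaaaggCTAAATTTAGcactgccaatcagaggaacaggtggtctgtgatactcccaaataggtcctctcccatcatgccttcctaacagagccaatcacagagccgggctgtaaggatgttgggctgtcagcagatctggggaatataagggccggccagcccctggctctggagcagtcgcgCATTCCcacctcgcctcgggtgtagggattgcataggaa

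Of the 38 genes, 33 had at least 1 window in the RefSeq promoter table, with 43 windows in all, and the table holds 32851 windows over all genes. Both strands were searched, and a match is a description of letters and not of binding. The MCAT motif CATTCC, bound by TEAD factors, occurred in 11 of the 43 windows and in 14.7% of all windows. The MEF2 site occurred in 7 windows, of the genes Mybpc3, Myom3, Myoz2, Synpo2, Synpo2l and Ttn, against 1.86% of all windows. The CArG box, bound by serum response factor, occurred in 4 windows, of Ldb3, Myom1 and Nebl, against 1.63% of all. TGATAA, a form of the GATA motif, occurred in 2 windows against 9.05% of all. The MEF2 site and the CArG box read alike on both strands in many forms, so that 1 stretch can match on both. Windows of a gene can also overlap, so that 1 site is counted in each. The Ldb3 windows share the same CArG box and the Flnc windows the same MCAT match. The Mybpc2 window held 1 MCAT match, on the opposite strand, and the Obsl1 window and both Pdlim5 windows held no match to these 4 motifs. The pair of Pdlim5 windows differ in composition, at 33.3% GC for the downstream start and 64.7% for the upstream start.

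Titin and cardiac myosin binding protein C did not pass. Titin, encoded by Ttn, is the giant spring of the sarcomere, and its longest transcript in GENCODE M21 measures 106824 bases. Ttn held 933, 821 and 1142 CPM in TAC libraries, against 955, 581 and 634 CPM in sham libraries. The groups overlapped, with sham replicate 1 above TAC replicates 1 and 2 (0.42 ± 0.22 on the log2 scale, adjusted p = 0.261 in edgeR). With GC and length trends removed the log2 fold change of Ttn was 0.07. Mybpc3, the cardiac form of myosin binding protein C and a common site of human cardiomyopathy mutations, measured 5105, 4849 and 6018 CPM in TAC libraries, against 5399, 4993 and 5588 CPM in sham libraries. Its log2 fold change was -0.0007 with a 95% interval of -0.36 to 0.36. Per length, Mybpc3 stood far above Mybpc2, at 1149 ± 226 against 14.7 ± 7.41 FPKM in TAC libraries and 1263 ± 46.7 against 6.51 ± 1.11 FPKM in sham libraries (SD, n = 3 each). As a share of the summed FPKM of both genes, Mybpc2 made up 1.07%, 0.951% and 1.62% in TAC libraries, against 0.616%, 0.467% and 0.457% in sham libraries. The cardiac form was nearly the whole of this pair in every library.

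At the M-band, the myomesins cross-link myosin filaments and bind titin. Myom1 measured 769, 723 and 1095 CPM in TAC libraries, against 779, 521 and 588 CPM in sham libraries (0.45 ± 0.22 on the log2 scale, adjusted p = 0.213 in edgeR). Myom2, the M-protein gene, held 749, 701 and 1844 CPM in TAC libraries, against 1412, 878 and 1416 CPM in sham libraries. TAC replicates 1 and 2 lay below all sham libraries and TAC replicate 3 above all of them. With all libraries the log2 fold change of Myom2 was -0.17 ± 0.38 (SE, edgeR adjusted p = 0.811), and without TAC replicate 3 it was -0.77 (adjusted p = 0.0390). Within the myomesins Myom2 made up 53.3%, 53.2% and 66.4% of FPKM in TAC libraries, against 68.0%, 66.4% and 73.8% in sham libraries, and Myom1 the greater part of the rest. The highest TAC share and the lowest sham share were nearly equal. Myom3 was too low to test, at 208, 187 and 413 estimated counts in TAC libraries and 240, 199 and 199 in sham libraries.

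The cardiac troponin complex, made of the calcium sensor Tnnc1, the inhibitory subunit Tnni3 and the tropomyosin-binding subunit Tnnt2, did not pass in any of its parts, and the libraries differed in which subunit was high. Tnnt2 measured 4156, 4633 and 3918 CPM in TAC libraries, against 3379, 2872 and 3742 CPM in sham libraries. Its groups did not overlap, but the difference did not pass (log2 fold change 0.35 ± 0.16, SE, edgeR adjusted p = 0.210). Tnnc1 held 3448, 3998 and 2348 CPM in TAC libraries, against 2232, 2634 and 2679 CPM in sham libraries, and TAC replicate 3 lay among the sham libraries. Tnni3 held 5292, 5753 and 2824 CPM in TAC libraries, against 4827, 5883 and 6353 CPM in sham libraries, and TAC replicate 3 was again the library apart. With all libraries Tnnc1 and Tnni3 had adjusted p of 0.290 and 0.514 in edgeR. Without TAC replicate 3 the log2 fold change of Tnnc1 was 0.57 (adjusted p = 0.0324) and that of Tnni3 was -0.043. The ratio of Tnnc1 to Tnni3 in FPKM, which is free of library scaling, was 1.29, 1.38 and 1.65 in TAC libraries, against 0.916, 0.887 and 0.836 in sham libraries, with no overlap. This ratio was formed after the values were seen and is given without a test.

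Slow skeletal troponin I, Tnni1, is the fetal form of the heart and is replaced by Tnni3 after birth. It held 37, 12 and 16 estimated counts in TAC libraries, against 47, 42 and 68 in sham libraries. Every TAC library held fewer counts than every sham library. The level was at most 0.276 FPKM, and its share of troponin I was at most 0.00917% of FPKM in any library. A fit with edgeR's own filter on low counts included it, with a log2 fold change of -1.23 ± 0.58 (SE, adjusted p = 0.216).

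Tropomyosin lies along the thin filament and blocks the myosin sites on actin at rest. Tpm1, the main heart gene, was below sham in every TAC library, at 11018, 11924 and 10133 CPM in TAC, against 12767, 14228 and 12727 CPM in sham. The log2 fold change of Tpm1 was -0.26 ± 0.16 (SE, edgeR adjusted p = 0.315). Tpm2, known from slow skeletal and smooth muscle, held 37.0, 38.8 and 20.5 CPM in TAC libraries, against 15.2, 22.8 and 23.6 CPM in sham libraries. TAC replicate 3 lay within the sham libraries, and Tpm2 did not pass (0.64 ± 0.27, adjusted p = 0.168). Without that library it did (0.88, adjusted p = 0.0199). Tpm4, a tropomyosin of the non-muscle cytoskeleton, held 60.6, 45.1 and 37.3 CPM in TAC libraries, against 34.3, 22.5 and 16.7 CPM in sham libraries, without overlap. Its log2 fold change of 0.96 ± 0.28 did not pass (SE, edgeR adjusted p = 0.0727), but passed in DESeq2 (adjusted p = 0.0108), without TAC replicate 3 (0.0269) and without sham replicate 1 (0.0422). With GC and length trends removed the log2 fold change of Tpm4 was 0.65 (adjusted p = 0.203), and its adjusted p in the other 4 fits that left out 1 library was between 0.114 and 0.253. Tpm3 had a log2 fold change of 0.38 ± 0.16 (adjusted p = 0.165). A near copy of this gene, Tpm3-rs7, held 235 to 300 estimated counts in TAC and 214 to 292 in sham libraries, and reads shared between them would make both uncertain.

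Per length the minor tropomyosins were a small part of the whole. Tpm1 made up 97.8%, 98.1% and 98.4% of tropomyosin FPKM in TAC libraries, against 98.9%, 99.1% and 99.0% in sham libraries. Tpm4 made up 0.643% ± 0.151 of FPKM in TAC and 0.280% ± 0.109 in sham (SD, n = 3 each). The shares of Tpm2 (0.628% ± 0.161 in TAC, 0.342% ± 0.0743 in sham) and Tpm3 (0.597% ± 0.0190 in TAC, 0.386% ± 0.0707 in sham) were also higher in every TAC library than in any sham library. Tpm4 is also made by smooth muscle cells and fibroblasts. The 8 smooth muscle markers summed to between 83.6 and 129 FPKM in TAC and between 103 and 143 FPKM in sham, with 1 of 5 tested markers (Cnn1) risen and Lmod1, Mylk and Synm too low to test. Of the 13 fibroblast markers 6 rose (Dcn, Lum, Mfap5, Pi16, Postn and Ltbp2), where 4.71% of all tested genes rose. Their sum was between 638 and 866 FPKM in TAC and between 746 and 820 FPKM in sham, of which Gsn alone made up 517, 518 and 574 FPKM in TAC and 635, 721 and 673 FPKM in sham. Without Gsn, a choice made after its values were seen, the sum was 125, 120 and 292 FPKM in TAC libraries, against 111, 99.1 and 89.1 FPKM in sham libraries, and every TAC library was above every sham library. The part of these cells in the tropomyosin values was not tested.

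**Figure D3:**
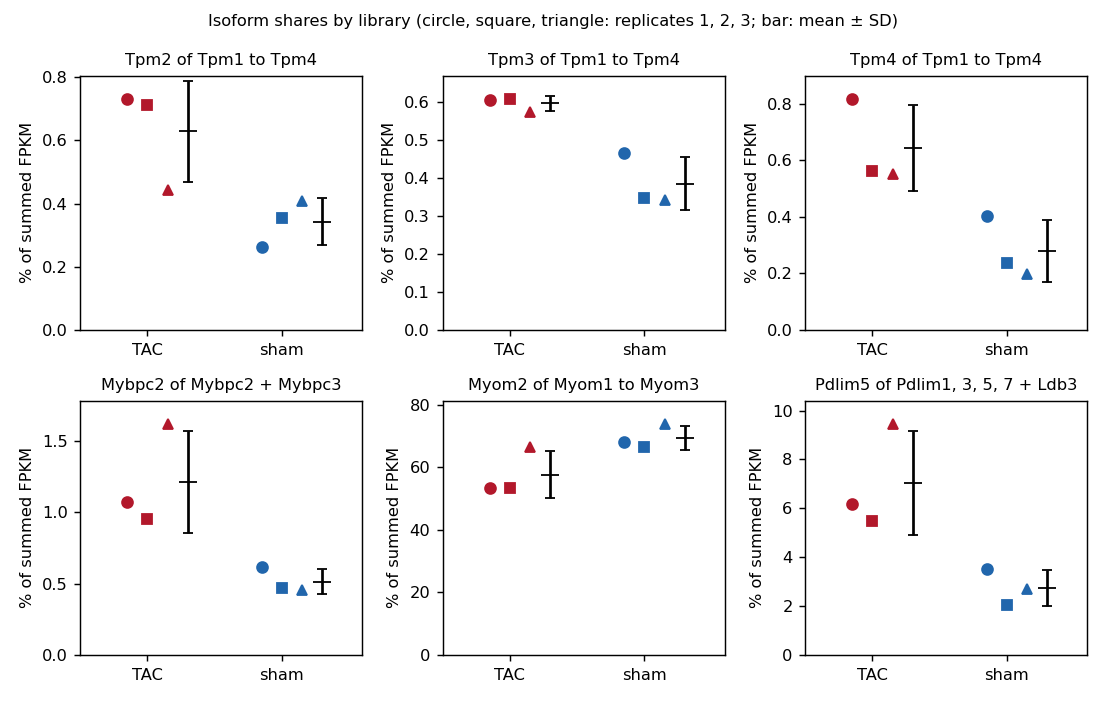
Share of a gene in the summed FPKM of its family, in percent, for 6 families or genes in each library, TAC left of sham, each axis starting at 0. Symbols are replicates 1, 2 and 3 and bars are mean ± SD of 3 libraries. Every share shown is higher in all TAC libraries than in all sham libraries except that of Myom2, which is lower, with its highest TAC share of 66.4% next to its lowest sham share.

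The genes that set the length of the thin filament did not pass in edgeR's test with all libraries. Leiomodin 2, encoded by Lmod2, lengthens thin filaments at the pointed end, and its loss causes dilated cardiomyopathy in mice. It measured 268, 281 and 478 CPM in TAC libraries, against 253, 133 and 197 CPM in sham libraries (0.82 ± 0.29 on the log2 scale, adjusted p = 0.112 in edgeR). The groups did not overlap, but TAC replicates 1 and 2 were close to sham replicate 1. Lmod2 passed in DESeq2 (adjusted p = 0.0350). Lmod3 held 75.8, 67.8 and 52.7 CPM in TAC libraries, against 50.0, 47.8 and 52.7 CPM in sham libraries, so that TAC replicate 3 and sham replicate 3 were level. It did not pass with all libraries (0.38 ± 0.16, adjusted p = 0.161) and passed without TAC replicate 3 (0.52, adjusted p = 0.0190). Tropomodulin 1, encoded by Tmod1, caps the same end and competes with leiomodin. Its log2 fold change was -0.22 ± 0.20 (adjusted p = 0.522), and 32.6% of its exonic bases overlap Tstd2 on the other strand, so its counts are uncertain because no source used here says whether counting used strand. Nebl, which encodes the Z-disc ruler nebulette, had 0.62 ± 0.25 (adjusted p = 0.156), and 0.02 with GC and length trends removed. The CPM of Nebl were higher in every TAC library than in any sham library. Capzb, a subunit of the protein that caps the thin filament inside the Z-disc, varied little between libraries, at 348 ± 17.3 CPM in TAC and 370 ± 6.42 CPM in sham (SD, n = 3 each, log2 fold change -0.09 with a 95% interval of -0.37 to 0.19). Even so, every TAC library of Capzb was below every sham library in CPM.

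Alpha-actinin cross-links thin filaments at the Z-disc. The muscle form Actn2 measured 3311, 3441 and 3217 CPM in TAC libraries, against 3273, 3284 and 3520 CPM in sham libraries. The groups overlapped, and the 95% interval of the log2 fold change, -0.33 to 0.30, includes 0. The non-muscle forms Actn1 (0.29 ± 0.25, adjusted p = 0.501) and Actn4 (0.18 ± 0.14, adjusted p = 0.427) did not pass either. Actn2 made up 97.0% ± 0.158 of alpha-actinin FPKM in TAC and 97.4% ± 0.366 in sham (SD, n = 3 each), and the shares of all 3 forms overlapped between groups.

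Of the 12 Z-disc proteins outside the alpha-actinins, 11 were tested, 2 rose (Pdlim5 and Nexn) and 9 did not pass. The relatives of Pdlim5 in the PDZ-LIM family also bind alpha-actinin. Pdlim1 had a log2 fold change of 0.14 ± 0.13, Pdlim3 of 0.16 ± 0.18 and Pdlim7 of -0.02 ± 0.18, with adjusted p of 0.519, 0.619 and 0.952, and all 3 changed sign with GC and length trends removed. Ldb3, which encodes the main striated-muscle member Cypher (also called ZASP), measured 1000, 1132 and 897 CPM in TAC libraries, against 978, 1067 and 1079 CPM in sham libraries (-0.04 ± 0.15, adjusted p = 0.875). Per length Pdlim5 made up 6.17%, 5.48% and 9.45% of the FPKM of these 5 genes in TAC libraries, against 3.52%, 2.04% and 2.68% in sham libraries, and Ldb3 made up 78.7% ± 2.29 in TAC and 83.5% ± 1.83 in sham (SD, n = 3 each).

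Synpo2l encodes CHAP, a heart-enriched actin-associated protein of the Z-disc. It held 228, 301 and 328 CPM in TAC libraries, against 192, 211 and 173 CPM in sham libraries, and every TAC library was above every sham library. The log2 fold change of 0.57 ± 0.17 did not pass (SE, edgeR adjusted p = 0.0747), and it passed in DESeq2 (adjusted p = 0.0184) and with GC and length trends removed, as above. Its relative Synpo2, or myopodin, had 0.04 ± 0.23 (adjusted p = 0.925). Filamin C, encoded by Flnc, which cross-links actin at the Z-disc and at sites of damage, had 0.35 ± 0.17 (adjusted p = 0.226). Tcap, which encodes the titin cap telethonin, measured 1925, 1898 and 1500 CPM in TAC libraries, against 1927, 1982 and 1653 CPM in sham libraries (-0.06 ± 0.16, adjusted p = 0.842). Calsarcin 1, the calcineurin-binding product of Myoz2, measured 1349, 1477 and 1229 CPM in TAC libraries, against 1174, 1127 and 1079 CPM in sham libraries. The groups of Myoz2 did not overlap, and its log2 fold change was 0.26 ± 0.14 (SE, edgeR adjusted p = 0.262), but -0.39 with GC and length trends removed. Myoz1, the skeletal muscle relative, held 19 to 25 estimated counts in TAC libraries and 9 to 33 in sham libraries.

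Desmin, encoded by Des, is the intermediate filament that ties neighbouring Z-discs together. Its CPM were 5049, 6026 and 6696 in TAC libraries, against 3636, 4094 and 4955 in sham libraries. All TAC libraries were above all sham libraries, with TAC replicate 1 close to sham replicate 3, and the log2 fold change of 0.49 ± 0.18 did not pass (SE, edgeR adjusted p = 0.131). In DESeq2 it did (adjusted p = 0.0458). DESeq2 called 18.8% of all genes, 11.7% higher and 7.02% lower, and 7 higher and 1 lower of the 35.

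Neither of the 2 assembly factors passed, and both had negative log2 fold changes. Smyd1 encodes a muscle lysine methyltransferase that is required for myofibril assembly. It measured 343, 335 and 626 CPM in TAC libraries, against 725, 743 and 540 CPM in sham libraries. TAC replicates 1 and 2 were below all sham libraries, while TAC replicate 3 was within them. Smyd1 did not pass with all libraries (-0.62 ± 0.26 on the log2 scale, adjusted p = 0.167 in edgeR) and fell by 0.98 without TAC replicate 3 (adjusted p = 0.0102). Unc45b, the chaperone that folds the myosin head, measured 213, 240 and 192 CPM in TAC libraries, against 272, 282 and 257 CPM in sham libraries. Every TAC library of Unc45b was below every sham library (-0.33 ± 0.14, adjusted p = 0.159).

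**Figure D4:**
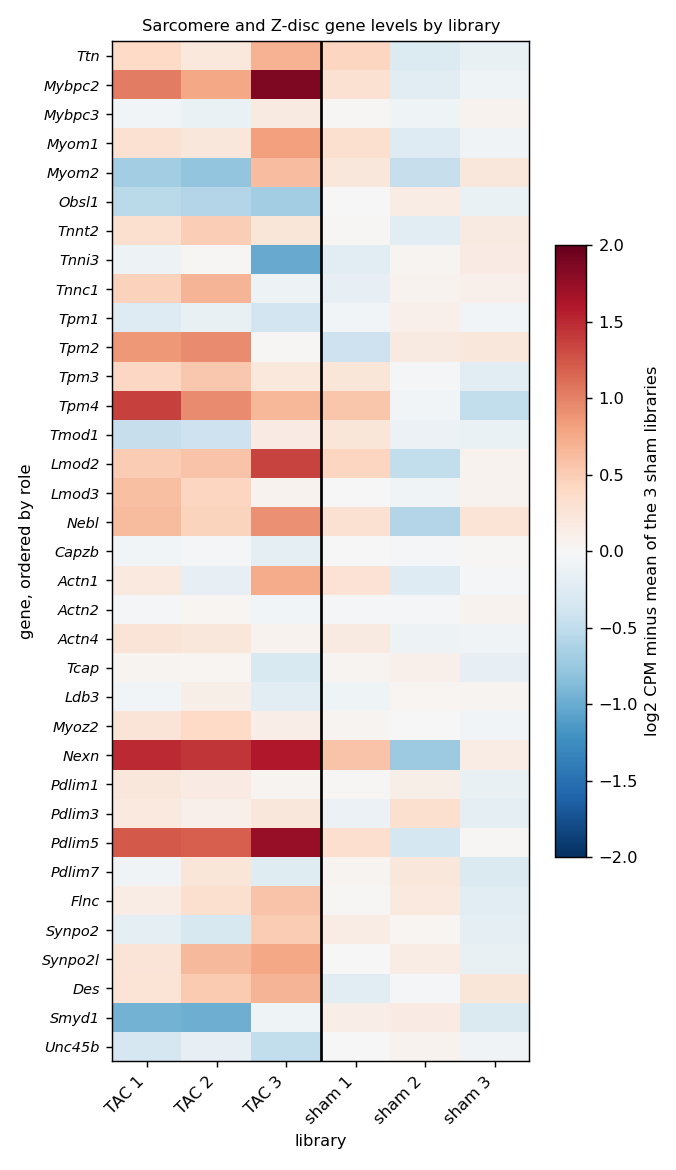
Log2 CPM of the 35 tested genes in each library minus the mean of the 3 sham libraries, with TAC libraries left of the black line, sham libraries right of it and genes ordered by role. Red is higher and blue lower than the sham mean. Nexn, Pdlim5 and Mybpc2 are red in all TAC columns, Obsl1 is blue in all of them, and Myom2, Smyd1, Tnni3 and Tpm2 differ between TAC replicate 3 and the other TAC libraries.

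TAC replicate 3 differed from TAC replicates 1 and 2 in many of these genes. Against the mean of the other TAC libraries its log2 CPM was higher by 1.35 in Myom2, 0.97 in Mybpc2, 0.89 in Smyd1, 0.80 in Lmod2 and 0.77 in Synpo2. In the other direction the difference was -0.97 in Tnni3, -0.88 in Tpm2, -0.66 in Tnnc1, -0.49 in Tpm4 and -0.44 in Lmod3. The genes of short exonic length tended to be low in that library and those of long exonic length high. The Spearman rho with exonic length was 0.44 across the 35 genes and likewise 0.44 across 8790 genes. Exonic length counts the bases of all annotated exons of a gene, and can exceed that of any single transcript. The fibroblast markers without Gsn were highest in that library, as given above. The 8 atrial markers summed to 2934 FPKM in it, against 1333 and 1759 FPKM in TAC replicates 1 and 2, and to between 512 and 1232 FPKM in sham libraries, but Nppa, a natriuretic peptide gene that ventricles under load are also known to express, made up 2901 FPKM of the 2934. Without Nppa, likewise a choice made after its values were seen, the atrial sum was 104, 19.1 and 33.0 FPKM in TAC libraries, against 31.4, 190.1 and 129.6 FPKM in sham libraries, and TAC replicate 3 did not stand apart. The part of exonic length and of cell makeup in these differences was not tested. Without TAC replicate 3, 7 of the 35 genes rose and 3 fell, where 9.24% of all tested genes rose and 10.1% fell. The 7 were Pdlim5, Nexn, Mybpc2, Tpm4, Tpm2, Tnnc1 and Lmod3, and the 3 were Obsl1, Smyd1 and Myom2.

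**Figure D5:**
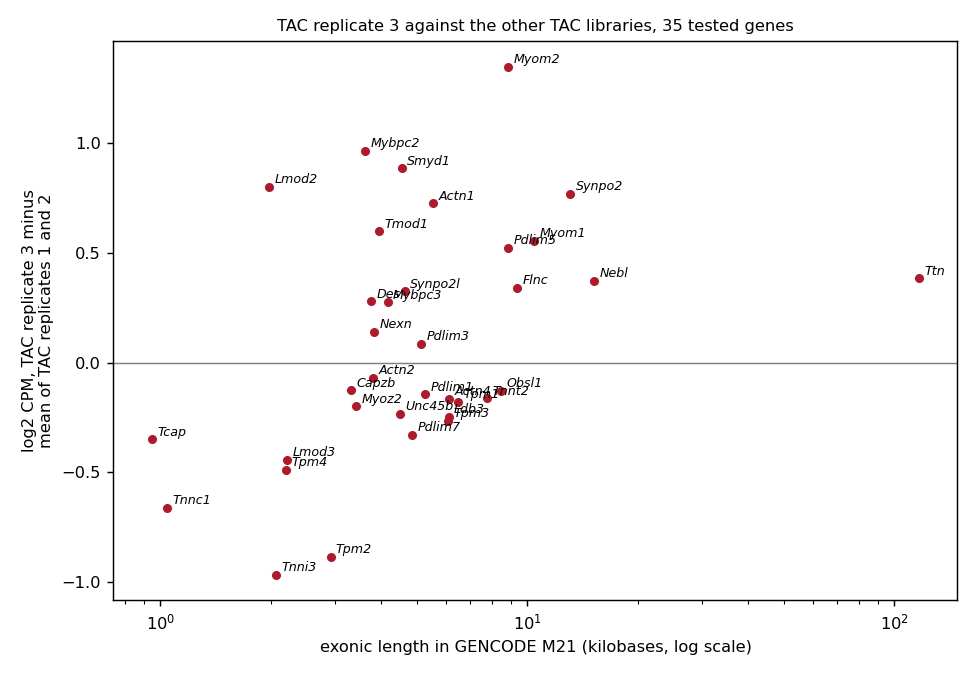
Log2 CPM in TAC replicate 3 minus the mean of TAC replicates 1 and 2 (vertical axis) against exonic length in kilobases on a log scale (horizontal axis) for the 35 tested genes. Each point is a gene. Tnni3, Tpm2 and Tnnc1 lie lowest, and Myom2 lies highest at 1.35.

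In levels per length the tested genes ran over more than 3 orders of magnitude in FPKM. The highest means over the 6 libraries were those of Tnnc1 (2577 FPKM), Tnni3 (2346), Tcap (1796), Tpm1 (1766), Des (1265), Mybpc3 (1206) and Actn2 (827). The ranges of the 6 libraries overlapped between all neighbours in this order except Mybpc3 and Actn2, where every library of Mybpc3 was above every library of Actn2. None of these 7 genes passed the test. The 4 that did had means of 16.4 FPKM (Obsl1), 10.6 (Mybpc2), 9.31 (Pdlim5) and 8.32 (Nexn). Ttn had a mean of 6.74 FPKM and Nebl, the lowest tested, 1.31.

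Other genes of the sarcomere and its Z-disc were counted from a list of 56, of which 55 were in the table and 46 were tested. There were 8 risen genes, none fell in edgeR's test and 38 did not pass, with a median log2 fold change of -0.04. In either direction 17.4% of the 46 passed, against 6.99% of all tested genes, of which 4.71% rose and 2.29% fell. At an unadjusted p under 0.05 in edgeR, 11 genes of this list were higher and 4 lower, where 2471 of 8795 tested genes passed. DESeq2 called 11 of the list higher and 3 lower, where it called 11.7% of all genes higher and 7.02% lower. The 8 were Xirp2, Myot, Acta1, Ankrd1, Sorbs2, Ankrd23, Fhl1 and Capza2. Capza2, an alpha subunit that pairs with the product of Capzb, rose by 0.73 ± 0.17 (adjusted p = 0.0433), while Capzb had the interval given above. Capza1, the relative of Capza2, was also higher in every TAC library than in any sham library in CPM. It did not pass (0.9998 ± 0.25, adjusted p = 0.0517). Sorbs2, an adaptor protein of the Z-disc, rose by 1.45 ± 0.31 (adjusted p = 0.0352) and Ankrd23, a titin-bound ankyrin repeat protein, by 1.03 ± 0.22 (adjusted p = 0.0357). The motor and actin genes of highest FPKM, Actc1, Myl3 and Myl2, did not pass, with log2 fold changes of -0.21 ± 0.19, -0.25 ± 0.19 and -0.14 ± 0.24.

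Markers of cardiomyocytes and of skeletal muscle were read beside these results. None of 14 ventricular cardiomyocyte markers passed in edgeR's test (median log2 fold change -0.12), with 2 at an unadjusted p under 0.05 and 0 called by DESeq2. They summed to between 26840 and 34640 FPKM in TAC and between 33690 and 40540 FPKM in sham. Mb alone made up 10590 to 14380 FPKM of the sum in TAC and 12570 to 16380 FPKM in sham. The sum was high in every library, but does not by itself define the tissue. Of 13 fast skeletal muscle markers 11 were in the table, and they summed to between 19.0 and 21.9 FPKM in TAC and between 10.1 and 23.6 FPKM in sham. Of the 2 that could be tested, Myl1, a fast skeletal myosin light chain gene, rose by 1.61 (adjusted p = 0.0241), and Casq1 had -1.35 (adjusted p = 0.110). The FPKM of all TAC libraries lay above all sham libraries in 3 of the 11 (Myl1, Tnnt3 and Ryr1), below them in 1 (Tnni2), and the groups overlapped in 7. In CPM 17.7% of all tested genes lay above and 17.1% below. No such share was computed in FPKM or for genes too low to test. Tnnt3, fast skeletal troponin T, held 34, 50 and 97 estimated counts in TAC libraries, against 6, 0 and 0 in sham libraries. Ryr1, the skeletal calcium release channel, held 39, 41 and 43 in TAC libraries, against 0, 16 and 0 in sham libraries. Tnni2, fast skeletal troponin I, held 56, 37 and 60 in TAC libraries, against 95, 121 and 76 in sham libraries. Myh1 and Actn3 were listed at 0 FPKM in all 3 TAC libraries. Tnnt3, Ryr1, Tnni2, Myh1 and Actn3 were all too low to test. The 10 endothelial markers summed to between 172 and 243 FPKM in TAC and between 190 and 210 FPKM in sham, with Tek risen. Their median log2 fold change was 0.39. In edgeR 5 were higher and 1 lower at an unadjusted p under 0.05, and DESeq2 called 4 higher and 0 lower. Over all genes DESeq2 called 11.7% higher and 7.02% lower. The 9 macrophage markers summed to between 327 and 446 FPKM in TAC and between 336 and 398 FPKM in sham. Of 7 tested, 0 passed in edgeR, with 1 at an unadjusted p under 0.05 and 1 called by DESeq2. The part of these cells in the results was not tested.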

How the data were processed

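Messenger RNA of left ventricles was sequenced from 3 TAC and 3 sham samples, and groups and replicate numbers were taken from the sample titles. The submitters' processing notes name cutadapt 1.9, HISAT2 2.0.4, StringTie 1.3.4d and the GRCm38 build. The authors deposited 1 table with FPKM values and counts per gene and library, per the file headers. No source used here says how the deposited counts were made, and they were treated as estimated counts. They are whole numbers. Per the labels' protocols the libraries mark strand, and whether counting used it is not given.

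The counts were tested with edgeR 4.0.16 in R 4.3.3 (TMM scaling, quasi-likelihood test, Benjamini-Hochberg adjustment over all tested genes, threshold 0.05) on genes with a mean of at least 1 FPKM. Standard errors are the log2 fold change divided by the square root of F, and intervals are 95% intervals from the fit. DESeq2 1.42.0, limma 3.58.1 on log2(FPKM + 1) and log2(FPKM + 0.1), other filters and scalings, removal of lowess trends over GC content and length (GENCODE M21), a replicate block and leaving out each library were alternatives. The fit was tested on simulated data. CPM are TMM-scaled counts. All 38 genes are named, in order of role, and of the other sarcomere genes the 8 called genes of lowest adjusted p and the 3 uncalled ones of highest FPKM. Capza1 was added beside Capza2, and Pdlim4 beside the other PDZ-LIM genes. The members, lists and tests were chosen with earlier results of these data known. Promoter windows come from RefSeq.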

Additional observations from a re-analysis of the deposited data

How the results depend on the processing

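With all 6 libraries and edgeR's quasi-likelihood test 615 genes passed. The count was 1648 with DESeq2, 285 without the FPKM filter, 365 with GC and length trends removed, and 12 to 1705 when 1 library was left out. Of the sarcomere genes 3 rose and 1 fell. The number that rose was 7 with DESeq2, 1 without the FPKM filter and 0 to 7 with 1 library left out. The number that fell was 0 without the FPKM filter, 0 with GC and length trends removed, 1 with DESeq2 and 0 to 3 with 1 library left out. At an unadjusted p under 0.05 in edgeR, 6 were higher and 3 lower without the FPKM filter, where 4505 of 23834 genes passed. With GC and length trends removed 13 were higher and 3 lower at that p, where 2113 of 8795 genes passed. Mybpc2 did not pass in limma on log2(FPKM + 1) (adjusted p = 0.0694).

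Deviations from the group means of same-numbered libraries had correlations of -0.10, 0.14 and -0.06. Those of differently numbered libraries ran from -0.23 to 0.25. With 3 libraries in a group these values cannot decide whether the replicate numbers pair the samples. With a replicate block 183 genes passed, 3 sarcomere genes rose and 0 fell. At an unadjusted p under 0.05 in edgeR, 9 were higher and 1 lower, where 2158 of 8795 genes passed. Tpm4 passed with the block (adjusted p = 0.0412), and Mybpc2 (0.0515) and Obsl1 (0.0751) did not. With the block and GC and length trends removed 131 genes passed, 1 sarcomere gene rose and 0 fell. In that fit 13 were higher and 3 lower at an unadjusted p under 0.05, where 1872 of 8795 genes passed.

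The log2 fold change kept its sign in every fit for 25 of the 35 tested genes. Of the other 10, no value with the opposite sign to that of all 6 libraries passed. With GC and length trends removed, without and with the block, it was 0.190 and 0.186 for Mybpc3, 0.153 and 0.154 for Actn2, 0.027 and 0.035 for Tcap, -0.386 and -0.382 for Myoz2, -0.292 and -0.286 for Pdlim1, -0.305 and -0.260 for Pdlim3, 0.200 and 0.197 for Pdlim7, and -0.147 and -0.142 for Synpo2. DESeq2 and RLE scaling each gave 0.007 for Mybpc3. In limma with a pseudocount of 1 and 0.1 Pdlim1 had -0.001 in both and Synpo2 had -0.117 and -0.143. Synpo2 also had -0.068 without the FPKM filter, -0.068 with edgeR's own filter and -0.003 with the block. With 1 library left out the values ranged from -0.098 to 0.062 for Mybpc3, -0.769 to 0.069 for Myom2, -0.041 to 0.020 for Actn2, -0.139 to 0.044 for Tcap, -0.135 to 0.034 for Ldb3, -0.167 to 0.095 for Pdlim7 and -0.261 to 0.196 for Synpo2. The cause of these changes was not tested.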
